A study of Mus musculus with 6 samples.

Results

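The genes described here are 31 genes for metabolic enzymes, carriers and a regulator of an enzyme that are typical of liver, read in 6 bulk RNA-seq libraries of mouse spinal cord. They were chosen on their level in control replicate 2, so their height in that library is how they were selected and is given as a description with no test. All 31 were in the files, of 25576 genes listed in at least 1 library. The label of the list held for 30 of the 31 members, which were highest in control replicate 2, and not for Aldh1a1, which was inside the range of the other 5 libraries.

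The libraries came from spinal cord of FVB mice at postnatal day 4, in 2 groups of 3. SMA mice had the genotype mSmn-/-, hSMN22tg/0, in which both copies of mouse Smn are disrupted and human SMN2 is carried as a transgene. Control mice had the genotype mSmn+/-, hSMN22tg/0, so they carried the same transgene and were themselves heterozygous for the disrupted allele, not wild type. The study's methods give n = 1 per group beside the triplicates, so p-values measure the spread between these libraries, which may be technical. Values are FPKM, fragments scaled to transcript length and to the mapped fragments of the library, and a gene absent from a library's file is listed at 0.

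Liver cells turn ammonia into urea, break down amino acids, make glucose during fasting, and oxidise drugs, fatty acids and sterols with cytochrome P450 enzymes. Many of these genes are silent or low in the fetus and rise in steps, some around birth, others toward weaning and others only in the adult. The enzymes are also zoned along the liver lobule, with urea synthesis and gluconeogenesis strongest near the portal vein and several P450 enzymes strongest near the central vein.

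Smn1, the targeted gene, is on chr13:100124852-100137690 (GRCm38, GENCODE M21). It was at 10.4, 8.64 and 11.9 FPKM in the control libraries and at 8.48, 9.30 and 11.1 FPKM in the SMA libraries, each in the order of replicates 1, 2 and 3. The ranges of both groups overlapped, with p = 0.6 in an exact permutation test (two-sided, 3 against 3 libraries, smallest possible p 0.1). The disrupted allele lacks only a part of the gene and the value is for the gene as a whole, so it does not check the labels, and the groups are named by their labels.

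Read depth is unknown, since FPKM holds no counts. From the spacing of low values, the depth relative to SMA replicate 1 was 1.16, 1.09 and 1.03 in control replicates 1, 2 and 3 and 1.01 in both other SMA libraries. Control replicate 2 was thus of ordinary depth. The 31 members together held 2153 FPKM there, 0.521% of that library's summed FPKM, against 36.7 and 32.5 FPKM in control replicates 1 and 3 and 34.3, 36.8 and 30.2 FPKM in SMA replicates 1, 2 and 3. The median member was at 37.4 FPKM in control replicate 2 and between 0.238 and 0.45 FPKM in each of the others.

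A gene was called raised in control replicate 2 when its FPKM was at least 10 times the highest of the other 5 libraries and at least 0.5 FPKM. This held for 25 of the 31 members, against 687 of all 17302 genes with at least 0.5 FPKM in that library (3.97%). Highest in control replicate 2 were 30 members, against 28.1% of the same genes. The selection used this contrast, so nothing is read from these shares. The median member was 111 times the highest of the other 5 libraries, while the median of all 17302 genes was 0.792 times, and 17 members were over 100-fold. The 6 members not called were Asl, Fah, Pklr, Cyp27a1, Gchfr and Aldh1a1. Nearest to the 10-fold threshold were Ass1, just inside at 10.4 times, and Pklr, just outside at 6.16 times. In whole spinal cord RNA, more cells of a type and more RNA per cell cannot be told apart.

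**Figure D1:**
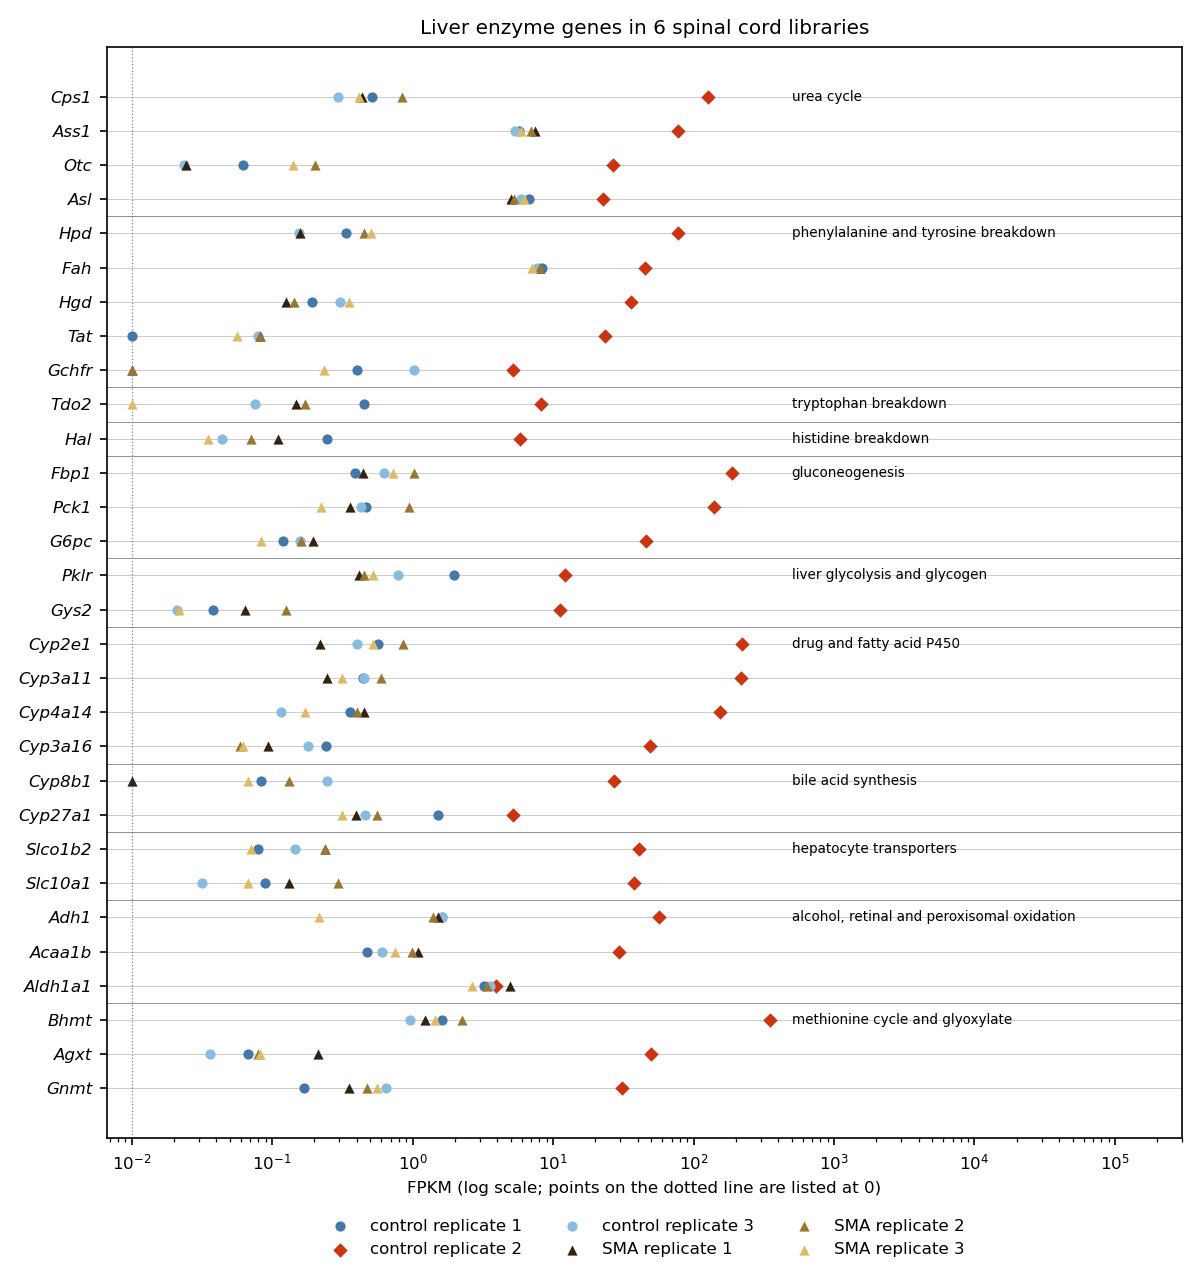
FPKM of 30 of the 31 liver enzyme genes (rows, grouped by role) in each library on a log axis, with points on the dotted line listed at 0. The red diamonds of control replicate 2 lie to the right of the other 5 libraries in every row but that of Aldh1a1, whose 3.91 FPKM lies between 2.66 and 4.96 FPKM.

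**Figure D2:**
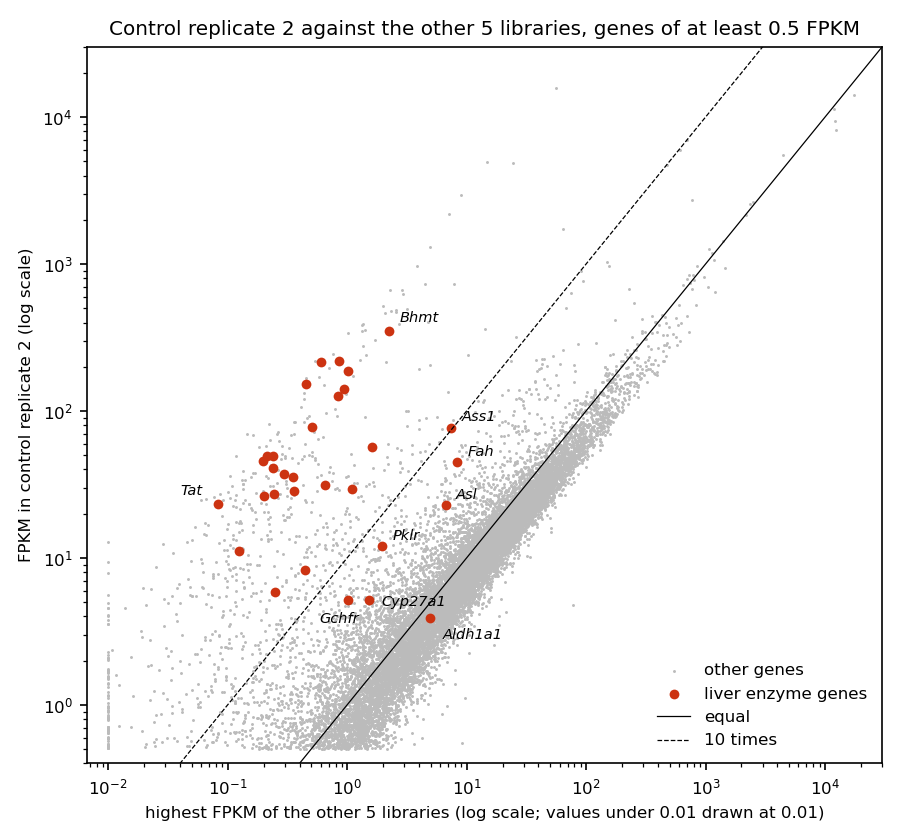
FPKM in control replicate 2 against the highest FPKM of the other 5 libraries, both on log axes, for the 17302 genes of at least 0.5 FPKM in control replicate 2, with the 31 members in red. The dashed line marks 10 times the highest of the others, which 25 members reached, and the solid line marks equality.

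In what follows, the level in control replicate 2 is given before those in control replicates 1 and 3 and in SMA replicates 1, 2 and 3. All 5 members of the urea cycle, which turns ammonia into urea, peaked in control replicate 2, and 4 passed 10-fold. Cps1, the enzyme of the first step in mitochondria (chr1:67123026-67231259), was at 126 FPKM, against 0.516 and 0.294 FPKM in the other control libraries and 0.434, 0.844 and 0.414 FPKM in the SMA libraries. Ass1, which joins citrulline to aspartate, was at 77.1 FPKM, against 5.69 and 5.34 FPKM and 7.39, 6.94 and 5.88 FPKM. Asl, which splits the product of Ass1 into arginine and fumarate, was at 22.8 FPKM, against 6.70 and 5.92 FPKM and 4.99, 5.26 and 6.22 FPKM. Ass1 and Asl thus had a level of several FPKM in all 6 libraries, and their folds of 10.4 and 3.40 over the highest other library were the smallest of the cycle. Otc, which makes citrulline in mitochondria, was at 26.6 FPKM and at most 0.203 FPKM in each of the others. Of the list's 3 genes outside the members, Nags, which makes the activator of Cps1, was at 5.21 FPKM and the mitochondrial carrier Slc25a13 at 40.7 FPKM, and both were called. The ornithine carrier Slc25a15 was at 21.2 FPKM and 4.05 times the highest other library, and was not called.

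In the breakdown of phenylalanine and tyrosine, tyrosine passes through Tat, Hpd, Hgd and Gstz1 to Fah. Among its 5 members, Hpd was highest, at 77.6 FPKM, against 0.334 and 0.155 FPKM in the other control libraries and 0.159, 0.450 and 0.506 FPKM in the SMA libraries. Fah, the last enzyme, was at 45 FPKM, against 8.29 and 7.65 FPKM and 8.04, 8.05 and 7.12 FPKM. Gchfr, whose product holds back the making of tetrahydrobiopterin, was at 5.19 FPKM, against 0.402 and 1.02 FPKM, was at 0.233 FPKM in SMA replicate 3 and was listed at 0 in SMA replicates 1 and 2. These 5 steps were therefore all present in control replicate 2, while among these 3 only Fah exceeded 1.02 FPKM elsewhere. Tat (23.5 FPKM) and Hgd (35.7 FPKM) were 285 and 100.4 times the highest other library, and Tat was listed at 0 in control replicate 1. Of the list's 5 genes outside the members 1 was called, and Gstz1 (46.1 FPKM) and Pcbd1 (37.2 FPKM) were highest in control replicate 2 and under 10-fold.

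Tdo2, the first enzyme of tryptophan breakdown in hepatocytes, was at 8.27 FPKM, against 0.448 and 0.0751 FPKM in the other control libraries, 0.149 and 0.173 FPKM in SMA replicates 1 and 2 and a listing at 0 in SMA replicate 3. The downstream enzymes Haao and Qprt were both at 20.4 FPKM and Kynu at 10.3 FPKM, and 5 of the 7 tryptophan genes outside the members were called. Hal, which removes ammonia from histidine, was at 5.82 FPKM, against 0.247 and 0.0440 FPKM and 0.110, 0.0706 and 0.0349 FPKM. Both opening enzymes were thus among the lowest members. The later histidine enzymes Ftcd (35.0 FPKM), Uroc1 (20.5 FPKM) and Amdhd1 (6.36 FPKM) were all above Hal and were all called.

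The methionine cycle and glyoxylate group held the most abundant member. Bhmt, which remethylates homocysteine with betaine (chr13:93616675-93637961), was at 353 FPKM, against 1.63 and 0.965 FPKM in the other control libraries and 1.23, 2.26 and 1.45 FPKM in the SMA libraries. Gnmt, which uses up S-adenosylmethionine, was at 31.2 FPKM, against 0.168 and 0.652 FPKM and 0.354, 0.471 and 0.556 FPKM. Agxt, which detoxifies glyoxylate in peroxisomes, was at 49.6 FPKM and at most 0.212 FPKM elsewhere. All 3 were called, as were 6 of the 10 genes of the list outside the members, of which Mat1a (221 FPKM), Grhpr (52.5 FPKM) and Sardh (36.7 FPKM) were the most abundant. Grhpr and Sardh were at several FPKM in every library and were not called. The file gives Gnmt a locus span that it shares with 17 other genes, so its reads may be less cleanly separated, and 6 members in all had such a shared span.

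Gluconeogenesis was represented by 3 members, all called. Fbp1, which makes fructose 6-phosphate, was at 188 FPKM, against 0.389 and 0.626 FPKM in the other control libraries and 0.444, 1.02 and 0.727 FPKM in the SMA libraries. G6pc, which releases free glucose, was at 45.9 FPKM, against 0.119 and 0.159 FPKM and 0.196, 0.162 and 0.0836 FPKM. Pck1, the cytosolic enzyme that commits oxaloacetate to glucose, was at 141 FPKM and at most 0.951 FPKM elsewhere. These steps were thus all high. Of the list's 4 genes outside the members 1 was called, Pcx (61.8 FPKM) and Slc37a4 (17.2 FPKM) were highest in control replicate 2 without reaching 10-fold, and Gpt, at 3.18 FPKM, was inside the range of the others.

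The opposite direction, from glucose to pyruvate and glycogen, was lower in FPKM. Pklr, the liver and red cell form of pyruvate kinase (chr3:89136142-89146784), was at 12.1 FPKM, against 1.96 and 0.789 FPKM in the other control libraries and 0.415, 0.454 and 0.525 FPKM in the SMA libraries. Gys2, the liver form of glycogen synthase, was at 11.2 FPKM, against 0.0379 and 0.0209 FPKM and 0.0644, 0.126 and 0.0216 FPKM. Gckr, not a member, was at 19.7 FPKM and was the only called gene of the list's 5 outside the members. Pygl (25.9 FPKM) lay just under the threshold at 9.73 times, and Khk was at 12.5 FPKM.

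All 4 members among the P450 genes for drugs and fatty acids were called. Cyp2e1, which oxidises ethanol and acetone, was at 220.0 FPKM, against 0.566 and 0.404 FPKM in the other control libraries and 0.221, 0.856 and 0.523 FPKM in the SMA libraries. Cyp3a16, a member of the Cyp3a family known from fetal and newborn mouse liver (chr5:145436309-145469723), was at 49.2 FPKM, against 0.242 and 0.181 FPKM and 0.0936, 0.0592 and 0.0617 FPKM. Its neighbour Cyp3a11 (chr5:145854426-145879964), the main Cyp3a gene of adult liver, was at 216 FPKM, 359 times the highest other library and the largest fold of the members. Cyp4a14, which hydroxylates fatty acids and answers to fasting through Ppara, was at 154 FPKM. Reads of near-identical Cyp3a genes can be split between copies, so the ratio of Cyp3a11 to Cyp3a16 is uncertain. Among the 13 genes of the list outside the members, 9 were called, and Cyp2d26 (107 FPKM), Por (43.7 FPKM, not called) and Cyp4a10 (38.1 FPKM) were the most abundant.

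Bile acid synthesis and uptake were each represented by 2 members. Cyp8b1, which sets the share of cholic acid, was at 27.2 FPKM, against 0.0839 and 0.246 FPKM in the other control libraries, a listing at 0 in SMA replicate 1 and 0.133 and 0.0674 FPKM in SMA replicates 2 and 3. Cyp27a1, a mitochondrial sterol hydroxylase made in many tissues, was at 5.16 FPKM, against 1.53 and 0.458 FPKM and 0.396, 0.558 and 0.315 FPKM. The carriers that bring bile acids and other anions into hepatocytes were more alike. Slco1b2 was at 40.8 FPKM, against 0.0788 and 0.145 FPKM and 0.238, 0.237 and 0.0705 FPKM. Slc10a1 was at 37.4 FPKM, against 0.0884 and 0.0318 FPKM and 0.133, 0.294 and 0.0671 FPKM. Outside the members, 6 of 8 bile acid genes were called, with Slc27a5 (52.8 FPKM), Hsd3b7 (39.9 FPKM) and Akr1d1 (31.8 FPKM) the most abundant. Cyp7a1, the rate-limiting enzyme of bile acid synthesis, was called at only 1.99 FPKM. All 5 carriers outside the members were called, led by Abcc2 (32.4 FPKM), Abcb4 (24.5 FPKM) and Abcb11 (17.8 FPKM).

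The last group oxidises alcohol, retinal and fatty acids in cytosol and peroxisomes. Adh1, an alcohol dehydrogenase, was at 57.2 FPKM, against 1.61 FPKM in both other control libraries and 1.51, 1.40 and 0.217 FPKM in the SMA libraries. Acaa1b, a peroxisomal thiolase, was at 29.4 FPKM, against 0.473 and 0.603 FPKM and 1.10, 0.992 and 0.746 FPKM. Aldh1a1, which oxidises retinal to retinoic acid (chr19:20492715-20643465), was at 3.91 FPKM, against 3.21 and 3.54 FPKM and 4.96, 3.38 and 2.66 FPKM. It was the lowest member in control replicate 2, and SMA replicate 1 lay above it. Of the list's 6 genes outside the members, Ehhadh (32.7 FPKM) and Adh4 (3.55 FPKM, listed at 0 in the other 5 libraries) were called. Aldh2 (44.5 FPKM) and Hsd17b4 (38.2 FPKM) were at 19.7 FPKM or more in every library and were not called.

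Over the 11 pathway lists together, 41 of the 69 genes outside the members were called and 65 were highest in control replicate 2. The lists were written with the liver signal of that library known, so these counts are a description of it. Among those not highest there were Ido2, Gpt and Cyp7b1.

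Several members have a counterpart that does the same reaction outside the liver, and 11 such pairs were read side by side. Pck1, the liver form, made up 96.7% of the summed FPKM of Pck1 and Pck2 in control replicate 2 and 5.66% to 18.7% in the other 5 libraries. For G6pc and G6pc3 the share was 78.4%, against 0.48% to 1.14%. Gys2 was 68.7% of the pair with Gys1, against 0.252% to 1.51%. The liver form thus outweighed the counterpart in control replicate 2 alone in these 3 pairs. Pklr was different, with 8.36% of the pair with Pkm in control replicate 2 and 0.199% to 0.918% elsewhere. Fbp1 was the larger form in every library, at 68.6% or more of the pair with Fbp2. Outside control replicate 2 both were low, Fbp1 at 0.389 to 1.02 FPKM and Fbp2 at 0.0508 to 0.178 FPKM, so those shares are imprecise.

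The counterparts themselves were mostly lower in control replicate 2 as deposited, and mostly inside the range of the others when scaled on spinal cord markers. Pkm was at 132 FPKM there, against 205 to 219 FPKM in the other 5 libraries, and inside their range on that scale. Of the 11 counterparts, 7 were under the lowest of the other libraries (1 when scaled on spinal cord markers), Pck2 and Acaa1a were above the highest, and Fbp2 and Mat2a were inside the range. Acaa1a, at 24.2 FPKM against 9.81 to 11.8 FPKM, is a close paralog of Acaa1b, and reads may be split between both. The counts were alike at the same total FPKM (8 lower) and with median ratio scaling (7 lower). With each library scaled on a list of spinal cord markers, 1 counterpart stayed under the lowest of the others, 7 were inside the range and 3 were above it. The median gene was at a log2 ratio of -0.18 between control replicate 2 and the mean of the others as deposited and of 0.22 on that scale.

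**Figure D3:**
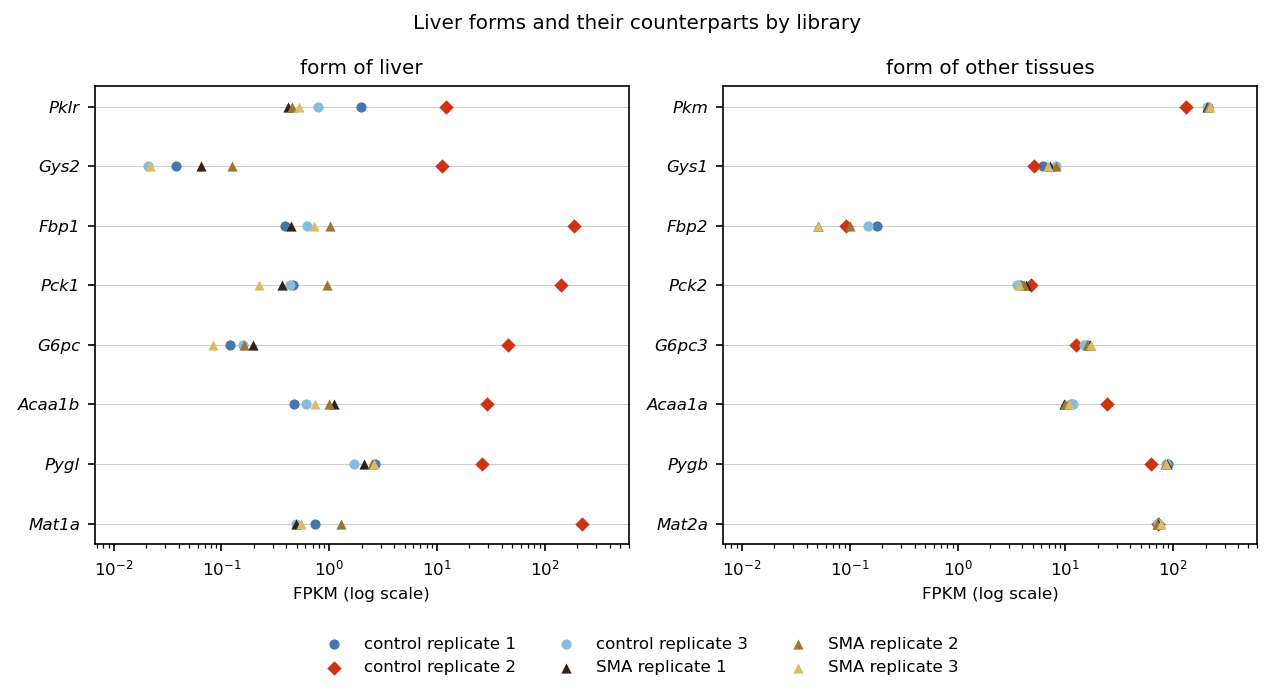
FPKM on log axes of 8 of the 11 liver forms (left) and their counterparts of other tissues (right) in each library. The liver forms shown are highest in control replicate 2 (red diamonds), while 4 of the 8 counterparts are lowest there in the FPKM as deposited and 0 after scaling on spinal cord markers.

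The maturity of the liver signal was read from 4 lists that follow the order in which genes come on in mouse liver. Genes high in fetal and newborn liver were abundant in control replicate 2. Afp, the fetal serum protein, was at 2929 FPKM, against 8.99 and 6.09 FPKM in the other control libraries and 4.25, 8.12 and 4.57 FPKM in the SMA libraries. The noncoding RNA H19 was at 1729 FPKM, against at most 64.7 FPKM, and Igf2 at 638 FPKM, against at most 75.4 FPKM. Afp, H19 and the member Cyp3a16 were called, and Igf2 and Gpc3, which the other libraries also held, were highest in control replicate 2 without reaching 10-fold. The 4 genes switched on around birth are all members, Tat, Pck1, G6pc and Cyp2e1, and all were called, at 23.5 to 220.0 FPKM.

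Of the 6 genes that rise later, up to weaning, 3 were called. Cyp3a11 was the highest of them at 216 FPKM, followed by Cyp1a2 at 13.3 FPKM. Pklr (12.1 FPKM) and Tdo2 (8.27 FPKM) came next, and Cyp2c29 was at 0.282 FPKM. This list was therefore mixed, with Cyp3a11 as high as the birth genes and Cyp2c29 near absence. Among the 6 adult and sex-dependent genes, Mup20 and Elovl3 were listed at 0 in all 6 libraries, so their 0 is not read as a low level. Hsd3b5 was at 0.249 FPKM. Cyp2d9 (15.7 FPKM), Slco1a1 (11.3 FPKM) and Cyp4a12a (5 FPKM) were called.

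Within control replicate 2, Afp was thus far above Cyp3a11, the highest gene of the later list. The adult genes were not all low, since 3 of the 6 were called, and Alb, at 15894 FPKM, was above Afp. The age of the mice was postnatal day 4, and whether the levels match that age was not tested. No liver library of a known age was analysed here, so the levels were set against no stage, and a mixture of hepatocytes of unlike maturity and hepatocytes of 1 intermediate kind cannot be told apart.

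**Figure D4:**
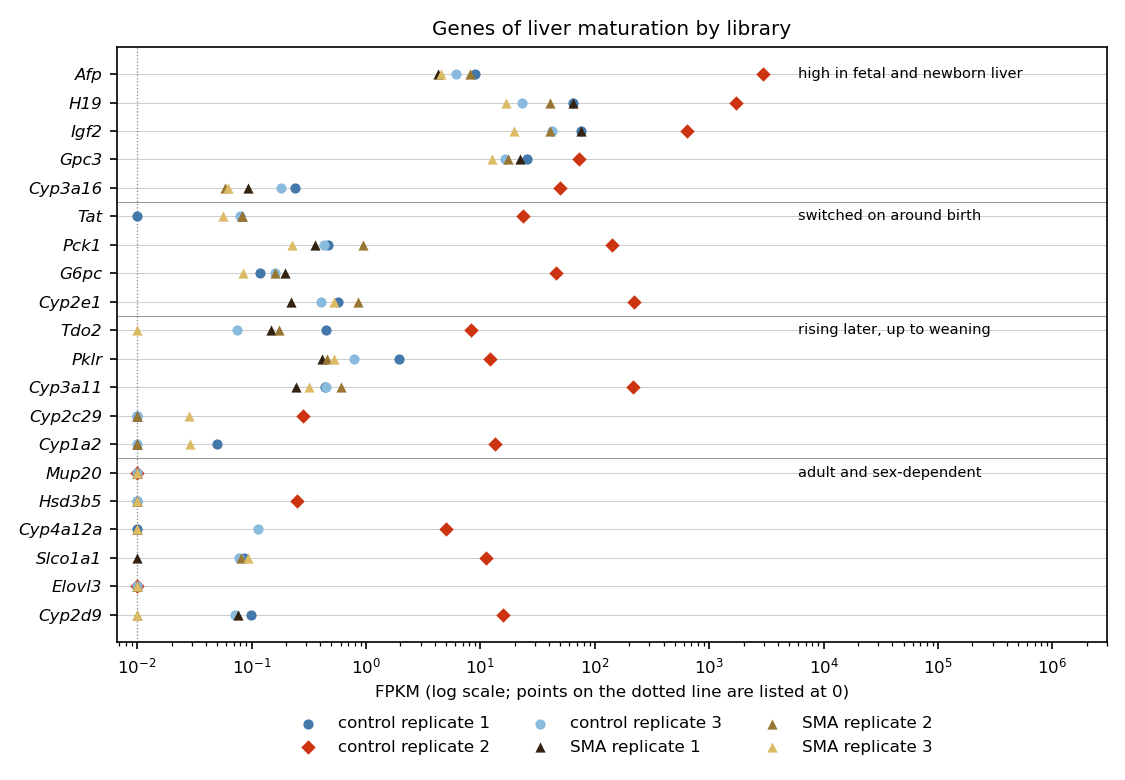
FPKM on a log axis of genes grouped by when they come on in mouse liver, in each library, with points on the dotted line listed at 0. In control replicate 2 (red diamonds) Afp is at 2929 FPKM and the 4 birth genes are at 23.5 to 220.0 FPKM. Of the later genes, Cyp3a11 is at 216 FPKM, Cyp1a2 at 13.3 FPKM and Cyp2c29 at 0.282 FPKM. Of the adult genes, Cyp2d9 is at 15.7 FPKM, Slco1a1 at 11.3 FPKM, Cyp4a12a at 5 FPKM and Hsd3b5 at 0.249 FPKM. Mup20 and Elovl3 are listed at 0 in all 6 libraries, which is not read as a low level.

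Genes known from both zones of the liver lobule were among the members. On the pericentral side the only member was Cyp2e1, which is also among the birth genes. FPKM of whole tissue hold no position, so the zones themselves were not read. Of the 10 periportal genes, 7 are members, among them Cps1, Ass1, Pck1, G6pc, Fbp1 and Hal, and 9 were called, with Cyp2f2 at 16.7 FPKM and Sds at 6.20 FPKM beside them. Of the 7 pericentral genes, Cyp2e1 is a member, and Gulo (37.8 FPKM), Lect2 (33.2 FPKM) and Cyp1a2 were called with it. Glul, the glutamine synthetase of the pericentral zone, was at 153 FPKM, against 132 to 175 FPKM in the other 5 libraries, and Oat at 20.8 FPKM, against 18.7 to 21.3 FPKM. Both are also made in spinal cord, where astrocytes hold Glul, so they do not inform on that zone here.

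The transcription factors that drive these genes in hepatocytes were raised as well. All 15 of the list were highest in control replicate 2 and 8 were called. Hnf4a was the most abundant at 21.1 FPKM, against 0.0501 to 0.159 FPKM elsewhere, followed by Ppara at 19 FPKM and the xenobiotic receptor Nr1i3 at 17.1 FPKM. Factors that the spinal cord also uses, such as Prox1, Onecut1, Foxa2 and Cebpb, were under 10-fold.

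Promoter stretches of 4 members that carry a letter match to a motif of such a factor, and of Aldh1a1 as the member that was not highest in control replicate 2, are shown as examples picked for their matches. In the RefSeq table (GRCm38.p6; 250 bases before to 50 after each start), 26 of the 31 members had an entry. RefSeq gives Aldh1a1 2 starts, and only the first listed is shown. The span of Aldh1a1 in the FPKM files is 0.275 times its GENCODE M21 span. Which start its FPKM reflects is therefore not known. Searched on both strands were CAAAGTCCA (HNF4A), GTTAATNAT (HNF1), TTGCNNAA (C/EBP) and the core promoter box TATAAA. The 150 bases before the start are printed 5′ to 3′ on the gene's strand, with matches in capitals. They are, in GRCm38.p6, chr9:121916306-121916455 (minus strand) for Cyp8b1, chr5:145469724-145469873 (minus strand) for Cyp3a16, chr6:141629368-141629517 (plus strand) for Slco1b2, chr16:37580003-37580152 (plus strand) for Hgd and chr19:20492433-20492582 (plus strand) for Aldh1a1, each before the gene in GENCODE M21.
Cyp8b1: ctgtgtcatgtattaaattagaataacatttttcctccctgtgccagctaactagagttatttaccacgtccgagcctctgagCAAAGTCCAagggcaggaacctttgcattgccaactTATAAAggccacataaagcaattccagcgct
Cyp3a16: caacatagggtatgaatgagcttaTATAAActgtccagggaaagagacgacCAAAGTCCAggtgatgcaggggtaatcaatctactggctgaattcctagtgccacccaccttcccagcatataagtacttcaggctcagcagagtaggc
Slco1b2: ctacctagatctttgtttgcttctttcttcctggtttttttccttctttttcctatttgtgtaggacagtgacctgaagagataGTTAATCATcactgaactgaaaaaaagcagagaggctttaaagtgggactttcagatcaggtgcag
Hgd: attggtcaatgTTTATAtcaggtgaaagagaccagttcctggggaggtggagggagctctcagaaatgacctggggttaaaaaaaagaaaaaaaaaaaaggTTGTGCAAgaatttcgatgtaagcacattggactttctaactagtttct
Aldh1a1: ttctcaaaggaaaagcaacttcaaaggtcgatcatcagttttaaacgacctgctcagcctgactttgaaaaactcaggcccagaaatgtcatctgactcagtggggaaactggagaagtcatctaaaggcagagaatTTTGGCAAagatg

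The HNF4A letters stand 67 bases before the start of Cyp8b1 and 99 bases before that of Cyp3a16, and the HNF1 letters 66 bases before that of Slco1b2. Over the whole window, the HNF4A letters were in 3 of the 26 members (11.5%), Cyp8b1, Cyp3a11 and Cyp3a16, against 0.555% of the 27025 genes in the table. Cyp3a11 and Cyp3a16 are paralogs with alike promoters, so they are not separate cases. The HNF1 letters were in 2 members (7.69%), Slco1b2 and G6pc, against 0.94% of all genes. The C/EBP letters were in 4 members (15.4%), against 12.2%, and 1 of these was Aldh1a1. TATAAA was in 11 members (42.3%), against 15.7%. A match of letters is a description of these windows and not a binding site.

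Markers of whole cell types moved with the members in control replicate 2. All 12 genes of proteins that hepatocytes secrete were called, with a sum of 32289 FPKM, against 99.8 and 74.0 FPKM in the other control libraries and 56.6, 122 and 64.8 FPKM in the SMA libraries, and Alb was the most abundant at 15894 FPKM. All 5 markers of Kupffer cells, the macrophages of liver, were called (39.4 FPKM in sum, against 0.104 to 0.246 FPKM), led by Marco at 12.3 FPKM. Of 3 markers of liver sinusoid endothelium 2 were called, led by Stab2 at 19.1 FPKM (31.9 FPKM in sum, against 0.753 to 1.52 FPKM). Of 8 erythroid markers 6 were called, with a sum of 7120.5 FPKM, against 424 to 724 FPKM, and the most abundant, Hba-a1 at 5964 FPKM, lay just under 10-fold at 9.66 times. Ahsp of that list was listed at 0 in all 6 libraries. The part of these cell types in the levels of the members was not tested.

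Markers of other organs, and those of bile duct cells of the liver (cholangiocytes), were low. Of 10 kidney markers, 0 were called and Umod, Slc34a1, Slc5a2, Kap, Aqp2 and Cdh16 were listed at 0 in control replicate 2, with a sum of 0.942 FPKM, against 0.415 to 0.963 FPKM elsewhere. Of 5 pancreas markers, 0 were called (1.36 FPKM in sum, mostly Pnlip, with Cpa1, Cel and Ins2 at 0), and of 4 cholangiocyte markers 0 were highest in control replicate 2 (8.44 FPKM in sum, mostly Sox9). Of 8 intestinal markers, Fabp2, a lipid carrier that hepatocytes also make, was called at 6.70 FPKM, and Cdx1, Cdx2 and Alpi were listed at 0 (8.13 FPKM in sum). Of 5 adipose markers 0 were called, with Fabp4 at 7.60 FPKM (10.9 FPKM in sum, against 2.43 to 7.05 FPKM), and of 5 skeletal muscle markers 0 were highest in control replicate 2, with Acta1 at 1.76 FPKM (3.19 FPKM in sum, against 0.923 to 6.23 FPKM). Umod, Slc5a2, Kap, Aqp2, Cdh16, Cdx2 and Cel were listed at 0 in all 6 libraries, so their 0 is not read as a low level.

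The labelled tissue was present in all 6 libraries. The 14 spinal cord markers summed to 1239.7 FPKM in control replicate 2, against 1596 and 1964 FPKM in the other control libraries and 1449, 1634 and 1629 FPKM in the SMA libraries, with Mbp the most abundant at 445 FPKM. In control replicate 2, 11 of the 14 were under the lowest of the other libraries as deposited, while after scaling on this same list 5 were under the lowest and 4 above the highest.

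In the other 5 libraries 20 members stayed under 1 FPKM throughout, while 11, among them Fah, Ass1, Asl and Aldh1a1, reached 1 FPKM or more in some library. The median member stood at 0.463% of its level in control replicate 2 in control replicate 1, at 0.36% in control replicate 3, and at 0.427%, 0.67% and 0.387% in SMA replicates 1, 2 and 3. Alb stood at 0.28% and 0.193% in those control libraries and at 0.155%, 0.354% and 0.192% in the SMA libraries. SMA replicate 2 was highest and control replicate 1 next by both measures, and the groups were mixed in that order. Of the other 5 libraries, SMA replicate 2 was the highest for 9 members, SMA replicate 1 for 8, control replicate 1 for 7, control replicate 3 for 4 and SMA replicate 3 for 3. In these libraries 4 members (Tat, Tdo2, Cyp8b1 and Gchfr) were listed at 0 in at least 1 library.

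**Figure D5:**
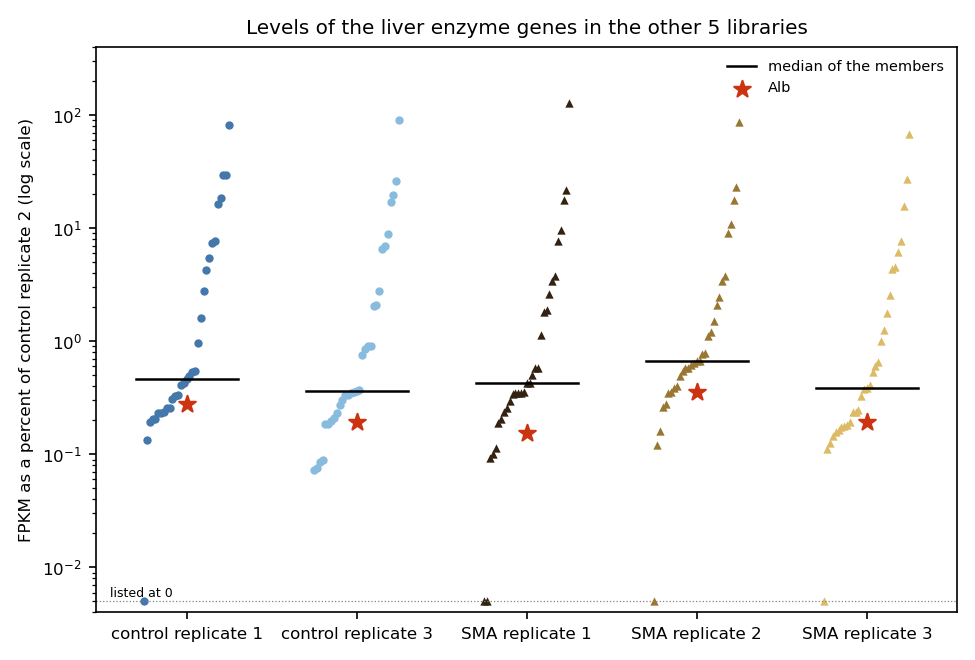
FPKM of each member as a percent of its level in control replicate 2 (log axis) in the other 5 libraries, with the median as a bar and Alb as a star. The medians lie between 0.36% and 0.67%, and the uppermost points, at about the level of control replicate 2, are Aldh1a1.

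SMA and control were compared with limma on log2(FPKM + 1), over genes averaging 0.5 FPKM or more, and a DEG had an unadjusted p under 0.05 and a fold over 2. With all 6 libraries all 31 members were tested, 19 of them only because control replicate 2 lifted them over that mean, and this contrast holds the value that chose them. Their signs and calls in it were therefore set by the selection and are no test of SMA. Of all 17088 genes tested, 0.0995% were DEGs lower in SMA and 0.0702% higher.

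Without control replicate 2, the comparison no longer used that value, and 12 of the 31 members passed the filter. Of the 12, 0 were DEGs, against 0.0422% of 16574 genes lower and 0.0965% higher, and at an unadjusted p under 0.05 in limma 1 was lower and 0 higher, against 5.2% and 5.27% of all genes. The median log2 fold change of the 12 was 0.05, with 5 lower and 7 higher by sign, and that of all genes was 0.00. The 3 SMA libraries lay below both control libraries for Pklr and Adh1 and above both for Ass1 and Acaa1b, so 2 of 12 in each direction, against 13.9% and 14.2% of all genes tested. These shares were near the background.

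Pklr was the member with p under 0.05. It was at 1.96 and 0.789 FPKM in control replicates 1 and 3 and at 0.415, 0.454 and 0.525 FPKM in the SMA libraries, so its control libraries differed from each other more than the lower one differed from SMA. Its log2 fold change was -0.65 (SE 0.22, limma p = 0.0206, adjusted p = 0.408), and an exact two-sided permutation test gave p = 0.1, the smallest that 3 libraries against 2 allow. With control replicate 1 also left out it was at -0.29, with SMA replicate 1 at -0.63 and with SMA replicate 2 at -0.65, and it lost p under 0.05 each time, while with control replicate 3 also left out it was at -1.02 and a DEG. Pklr is also made in red cells, and the erythroid list summed to 724 FPKM in control replicate 1 and 452 FPKM in control replicate 3, against 424, 645 and 479 FPKM in SMA, a difference whose part in Pklr was not tested. Its span in the files is shared with Hcn3, so its reads may be less cleanly separated.

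The other members that passed the filter had smaller differences. Acaa1b had a log2 fold change of 0.34 (SE 0.16, limma adjusted p = 0.505) and Ass1 of 0.24 (SE 0.12, limma adjusted p = 0.529), and Cyp27a1, at -0.44 (SE 0.24), and Adh1, at -0.43 (SE 0.31), were the largest in the other direction. A limma p under 0.05 was gained by Cyp27a1 with control replicate 3 also left out (-0.83), by Ass1 with SMA replicate 3 also left out (0.33) and by Acaa1b with no filter on low FPKM (0.34). For Adh1 the difference rested on SMA replicate 3, at 0.217 FPKM beside 1.51 and 1.40 FPKM, and without it the log2 fold change was -0.09. Cps1, Fbp1, Bhmt, Asl, Fah, Aldh1a1 and Cyp2e1 lay between -0.17 and 0.20. The 19 members that did not pass the filter had a mean under 0.5 FPKM in these 5 libraries. Gchfr, with a log2 fold change of -0.65, and Cyp3a16, with -0.18, were the 2 of these whose 3 SMA libraries lay below both control libraries (exact two-sided permutation tests, p = 0.1 for each), against 5.63% of the 8507 genes under the filter. Agxt was the 1 whose SMA libraries lay above both (exact two-sided permutation test, p = 0.3), against 10.4% of these genes. Nothing is read from 2 and 1 of 19 genes.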

How the data were processed

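Total RNA of spinal cord, depleted of ribosomal RNA, was sequenced in 3 SMA and 3 control libraries, grouped by their labels. The authors aligned reads with HISAT2 and deposited FPKM made with Cufflinks, with the build mm10 in the submitters' processing notes and an annotation release not given in the sources used here. The authors' own count test was not run, since FPKM are not counts. The files listed 25576 genes, 19099 of them in all 6 libraries, and 99.3% of the identifiers were in GENCODE M21. A gene absent from a file was set to 0.

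Group comparisons used limma 3.58.1 in R 4.3.3 (lmFit and eBayes with trend, two-sided) on log2(FPKM + 1), for genes averaging 0.5 FPKM or more across the fitted libraries, with Benjamini-Hochberg adjustment over all genes tested, and were tested on simulated data. A DEG had an unadjusted p under 0.05 and a fold over 2. Exact two-sided permutation tests went over all assignments of libraries to groups. Control replicate 2 was set against the other 5 libraries by levels and folds only. Tables were handled in Python 3.11.15 with pandas 2.3.3 and numpy 2.4.6, and figures drawn with matplotlib 3.10.9. Relative depth came from low FPKM values. Alternatives were other pseudocounts, filters, fold thresholds and scalings, a replicate block, and leaving out each library in turn.

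The members and lists were chosen with earlier results of these data known. Named with values in every library were the highest and lowest member of each role, the members that passed the filter without control replicate 2, and those next to the 10-fold threshold, and of each other list up to 3 genes of the highest FPKM. Further genes, such as Gpt, Ido2, Cyp7b1, Cyp7a1, Adh4, Hsd3b5, Oat and the transcription factors under 10-fold, were chosen after their values were seen. Some genes of the lists are not reported here by name.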

Additional observations from a re-analysis of the deposited data

How the results depend on the processing

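Of the 31 members, 30 were highest in control replicate 2 under every scaling tried, and the 25 called at 10-fold became 28 at 5-fold, 23 at 20-fold and 24 to 27 under the other settings. The median fold of 111 was 234 over the mean of the other libraries, 167 when scaled on the spinal cord markers, 123 with median ratio scaling, 92.6 at the same total FPKM and 78.9 with a pseudocount of 0.1.

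With all 6 libraries, the 17 DEGs lower and 12 higher in SMA became 125 and 64 at a pseudocount of 0.1, and the lower ones 11 with quantile normalization. The 1 member called a DEG, Gchfr, in this contrast that holds the value used for the selection, became 2 (Gchfr and Pklr) at a pseudocount of 0.1 and at the same total FPKM, and 0 with no filter, with a minimum mean of 1 FPKM and with median ratio scaling. Leaving out 1 library gave 4 to 131 lower and 12 to 28 higher DEGs and 0 to 2 members, and Gchfr, at -1.28, ran from -1.72 to -1.23 and lost p under 0.05 without control replicate 3 and without each SMA library. At a pseudocount of 0.1 with all 6 libraries, Gchfr was at -3.27. Smn1, at -0.09, ran from -0.2 to 0.01, the latter without control replicate 3.

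Without control replicate 2, the 7 lower and 16 higher DEGs became 59 and 115 at a pseudocount of 0.1, where Pklr made 1 member. Leaving out 1 more library gave 7 to 35 lower and 22 to 56 higher DEGs and 0 to 1 members. Directions of small log2 fold changes turned: Cyp2e1, at 0.03, was at -0.01 at a pseudocount of 0.1 and ran from -0.05 to 0.18 with 1 library left out. With 1 library left out, Fah ran from -0.09 to 0.01, Bhmt from -0.01 to 0.41 and Aldh1a1 from -0.13 to 0.22. Fbp1, at 0.19, ran from 0.07 to 0.32, and Cps1, at 0.15, from 0.03 to 0.22 where it passed the filter. Cyp27a1, at -0.44, ran from -0.83 to -0.38, and Pklr, at -0.65, from -1.02 to -0.29. Several log2 fold changes were larger in size at a pseudocount of 0.1. Pklr was at -1.26 there, Adh1 at -0.9, Cyp27a1 at -0.89 and Acaa1b at 0.71. Fbp1 was at 0.42, Cps1 at 0.37 and Bhmt at 0.32 at that pseudocount. Where a control arm held 1 library, it was assumed to vary like the SMA libraries. The cause was not tested for any of these.

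With a replicate block, lower DEGs were 35 with all 6 libraries, with 2 members (Gchfr and Pklr), and without control replicate 2 there were 19 lower and 26 higher DEGs, with Cyp2e1 at -0.12. Differences from the group mean correlated at -0.037, 0.0161 and 0.0766 between libraries of the same number. Between libraries of unlike number they correlated at -0.0554 to 0.0434. The main fits therefore used no pairing, but these values cannot show that the libraries were unpaired. The replicate block's cause was not tested.

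Read depth in counts is unknown, so the lowest FPKM have no known precision. With 3 libraries per group, or 2 once control replicate 2 is left out, few libraries carry each test, and it is not known whether the libraries of a group came from separate mice. Genes with close paralogs and shared spans have less certain values. Directions for SMA rest on the labels.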
